A study of Arabidopsis thaliana with 4 samples.

Results

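The transcripts described here are those of membrane-tethered transcription factors that regulate the stress response of the endoplasmic reticulum (ER) in Arabidopsis thaliana. They were chosen by gene identity, with earlier results of the same comparison in view. BZIP60, BZIP17 and BZIP28 were found by locus in the probe annotation. The probe set 249944_at was added by a selection rule that assigns it to NAC089, and the annotation used here lists no gene for it. That assignment was not checked, so it is called by its ID below. These are 4 of 22810 probe sets, and all 4 lay above the filter on low signals described below. Because the comparison of DTT with control was used in choosing them, their differences between groups are given as a description without a test.

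Leaf discs of wild-type Col-0 plants were kept in the dark for 1 h in MES buffer with 5 mM dithiothreitol (DTT) or in the same buffer alone as the control. DTT is a membrane-permeant thiol that reduces disulfide bonds. The discs came from source leaves of rosette plants that had not flowered, taken at the end of the night, and the comparison addressed how a change of cellular redox status alters gene expression. Each group had 2 Affymetrix ATH1 arrays, described by the submitters as biological replicates and named here DTT 1, DTT 2, control 1 and control 2.

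Proteins that enter the ER fold with the help of chaperones and form disulfide bonds there. When folding fails, plant cells raise the transcription of folding and degradation genes, the unfolded protein response. BZIP17 and BZIP28 are basic leucine zipper factors anchored in the ER membrane. Under stress they travel to the Golgi apparatus, where the proteases S1P and S2P release the part that enters the nucleus. BZIP60 mRNA is spliced in the cytosol by the ER sensor IRE1, which removes the membrane anchor from the protein that is made. A signal from an array reports the abundance of the transcript and gives no measure of that proteolysis or splicing.

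Signals on all 4 arrays had a trimmed mean of 100, and array medians lay between 25.4 and 32.8. Arrays grouped by replicate number: over the 13648 probe sets tested, log2 signals correlated at 0.968 between DTT 1 and control 1 and at 0.972 between DTT 2 and control 2, against 0.885 between both DTT arrays and 0.919 between both controls. Probe sets are not independent replicates. Differences are therefore given within each replicate number as well as over all arrays. Precision is limited by the number of arrays, 2 in each group. Of 6 mesophyll markers the annotation used here gives only RCA, the activase of Rubisco, a probe set of its own. Its signals were 3808.7 and 2999.4 after DTT, against 4077.4 and 2751.6 in control. Of 5 guard cell markers it gives FMA and GC1 one, with log2 differences of 0.07 and -0.17. In replicates 1 and 2 these were -0.27 and 0.41 for FMA and -0.51 and 0.16 for GC1. GC1 had signals of 162.2 and 620.4 after DTT, against 231.5 and 553.9 in control. Phloem and epidermis markers are given none there, though the array may hold them.

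Among the members whose signal was higher after DTT in both replicates, 249944_at had the larger difference. DTT 1 had a signal of 169 and DTT 2 one of 77.2, against 50.8 for control 1 and 26.9 for control 2. Both DTT arrays lay above both control arrays, and the lower DTT signal was 1.52 times the higher control signal. Its signal was 3.33-fold higher after DTT in replicate 1 and 2.87-fold higher in replicate 2, a mean log2 difference of 1.63 ± 0.15 (SD, n = 2 replicate numbers). Here and below the SD is that of the differences within replicate numbers, which the labels do not say pair the samples. It leaves out any shift that both arrays of one number share. In RNA from whole discs, more RNA per cell and more cells with the transcript cannot be told apart.

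BZIP60 was also higher after DTT, by less. DTT 1 had a signal of 914.8 and DTT 2 one of 536.9, against 520.5 for control 1 and 369 for control 2. Both DTT arrays again lay above both control arrays, but the margin was narrow, since DTT 2 exceeded control 1 by a factor of 1.03. Within replicate numbers the signal was 1.76-fold and 1.46-fold higher, a mean log2 difference of 0.68 ± 0.19 (SD, n = 2). The log2 difference of 249944_at exceeded that of BZIP60 by 0.92 in replicate 1 and by 0.98 in replicate 2.

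BZIP28 did not separate the groups. DTT 1 had a signal of 270.6 and DTT 2 one of 315.2, against 271.4 for control 1 and 404.1 for control 2. The groups overlapped: DTT 1 and control 1 had nearly equal signals, and control 2 had the highest of the 4. The log2 difference was -0.00 in replicate 1 and -0.36 in replicate 2, with a mean of -0.18 ± 0.25 (SD, n = 2), so the mean was smaller than its spread.

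BZIP17 gave unlike results in the replicates, with little difference in replicate 1 and a higher signal after DTT in replicate 2. After DTT its signal was 60.3 (DTT 1) and 30.9 (DTT 2), against 64.9 (control 1) and 3.9 (control 2) without it. The groups overlapped, because control 1 was the highest of the 4 arrays and control 2 the lowest. The log2 difference was -0.11 in replicate 1 and 2.99 in replicate 2, and the mean of 1.44 ± 2.19 (SD, n = 2) was smaller than its spread. Without control 2 the difference changed sign, to -0.59.

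**Figure D1:**
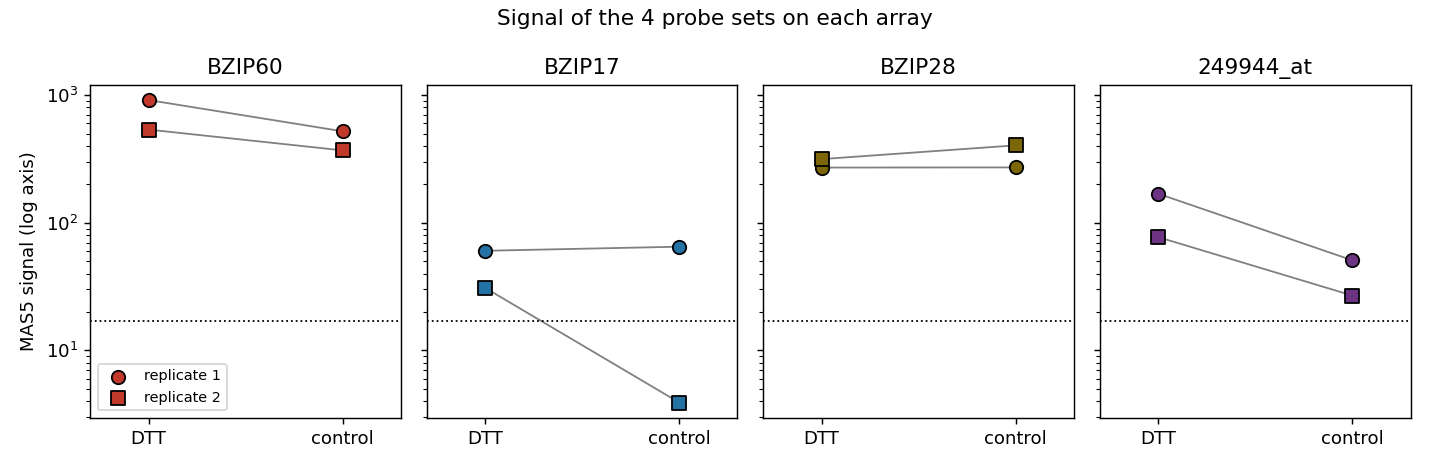
MAS5 signal of BZIP60, BZIP17, BZIP28 and 249944_at on a log axis, with DTT left and control right in each panel. Circles are replicate 1, squares replicate 2, grey lines join arrays of one replicate number, and the dotted line is the signal of 16.9 that the filter level corresponds to. Both lines run higher at DTT for BZIP60 and 249944_at, and for BZIP17 control 2 at 3.9 is the single point below the dotted line.

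The control 2 signal of BZIP17 was the only member value below 16.9, the signal that corresponds to the filter level. Low signals varied widely on these arrays. Among 663 probe sets whose control 2 signal lay within a factor of 1.2 of 3.9, the log2 difference of DTT 2 from control 2 had a 10th percentile of -1.93 and a 90th percentile of 1.23. BZIP17, at 2.99, lay above that range in replicate 2. The probe sets were matched on control 2 alone, while BZIP17 had 60.3 on DTT 1, 64.9 on control 1 and 30.9 on DTT 2. Its place above the range therefore depends on 1 low reading, and the comparison cannot show a rise beyond the noise of low signals. In replicate 1 its -0.11 lay between the 10th and 90th percentiles, -0.56 and 0.41, of 1716 probe sets of like signal. Among 1546 probe sets with a control 2 signal near that of 249944_at, the same percentiles were -0.63 and 0.46, and among 736 near that of BZIP60 they were -0.56 and 0.41. The log2 difference of BZIP60 in replicate 2 was 0.54 and that of 249944_at was 1.52, both above these ranges. In replicate 1 the 90th percentiles were 0.36 for 515 probe sets near BZIP60 and 0.41 for 1747 near 249944_at, against 0.81 for BZIP60 and 1.73 for 249944_at. BZIP28 lay between the 10th and 90th percentiles of probe sets of like signal in both replicates. The comparison of DTT with control was in view when the members were chosen, so these positions are a description and no test.

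The members also differed between replicate numbers within each group. The ratio of replicate 1 to replicate 2 for 249944_at was 2.19 after DTT and 1.89 in control. For BZIP60 it was 1.70 after DTT and 1.41 in control. BZIP28 ran the other way, at 0.859 after DTT and 0.672 in control. BZIP17 had a ratio of 1.95 after DTT and 16.6 in control. The part of the replicate number in these differences was not tested.

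Over all 13648 probe sets tested, the mean log2 difference had a median of -0.01, a 5th percentile of -0.57 and a 95th percentile of 0.41. The means of BZIP60, BZIP17 and 249944_at lay above the 95th percentile, and that of BZIP28 lay between both percentiles. Both DTT arrays were above both control arrays for 2 of the 4 members and for 8.01% of all probe sets tested. Both were below for 0 members and 9.81% of all. A higher signal within both replicate numbers was seen for 2 members and 24.3% of all, and an at least 2-fold higher one for 1 member, 249944_at, and 0.132% of all, or 18 probe sets. These shares describe values that were known when the members were chosen.

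**Figure D2:**
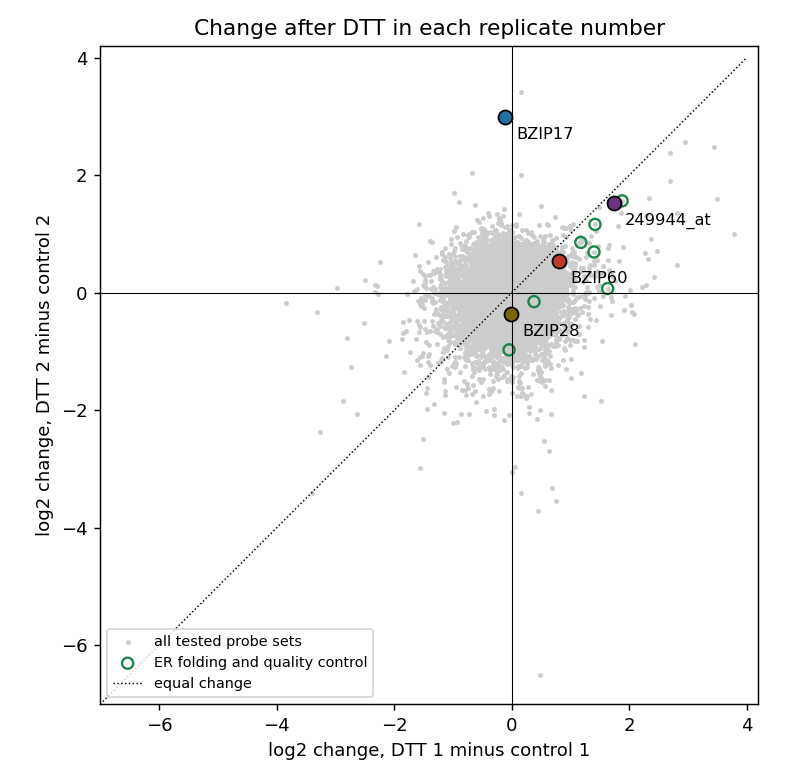
Log2 difference of DTT 1 from control 1 (x axis) against that of DTT 2 from control 2 (y axis). Grey points are all 13648 probe sets tested, green rings the 7 tested genes of ER folding and quality control, and filled points the 4 members. The members 249944_at and BZIP60 lie near the dotted line of equal change, while BZIP17 lies near 0 on the x axis and at 2.99 on the y axis.

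The proteases that release BZIP17 and BZIP28 showed small differences. S1P had signals of 74.8 and 46.4 after DTT, against 69.3 and 39.7 in control, and S2P had 46 and 41.8 after DTT, against 56.1 and 44.4 in control. Their mean log2 differences were 0.17 and -0.19, and limma called neither (adjusted p = 0.98 for both with the replicate number as a block). These were the only 2 of 10 listed sensors and regulators to which the annotation used here gives a probe set. IRE1 was therefore not analysed.

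Genes of ER folding and quality control encode the proteins that this response supplies. In the limma fit of all 13648 probe sets without a block, 0 were called at an adjusted p under 0.05, or 0%, and 95 had an unadjusted p under 0.05. With the replicate number as a block, 0.286% of probe sets were called higher and 0.637% lower. Of 32 listed genes of this group the annotation used here gives 7 a probe set of their own. The others may have probe sets for which it lists no gene or several genes. The 7 need not represent the list. With the block 4 of the 7 rose, 0 fell and 3 did not pass the test. The list and the tests were chosen with earlier results of these data known, so this count is a description. The list's median log2 difference was 1.02, with 1.40 in replicate 1 and 0.69 in replicate 2, beside -0.01 over all probe sets tested. The block fit has 1 residual degree of freedom. Its count of called probe sets moved between 3 and 176 with other settings, and the 4 calls here were lost when each array was set to one median or when no filter was used. CRT1B and DER2.1 were also lost with quantile normalization, with log2(signal + 16) and without the variance trend, and AT5G07340 without that trend.

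The 4 genes that rose act at different steps. ERDJ3B, a co-chaperone of the lumenal chaperone BiP, had signals of 1651.2 and 686.5 after DTT, against 448.7 and 232.1 in control (log2 difference 1.72, SE 0.21, limma with the block, adjusted p = 1.68e-05). AT5G07340, a calnexin that binds glycoproteins in the ER membrane, had 123.7 and 53.1 after DTT, against 46.3 and 23.7 in control (log2 difference 1.29, limma with the block, adjusted p = 0.0074). CRT1B, a calreticulin, had 525.4 and 201.8 after DTT, against 198.9 and 124.7 in control. For all 3 genes both DTT arrays lay above both control arrays, though for CRT1B the margin was narrow (201.8 on DTT 2 against 198.9 on control 1). DER2.1, a Derlin of the pathway that degrades misfolded proteins, had 242.6 and 381.2 after DTT, against 107.3 and 210.4 in control, again without overlap. CRT1B and DER2.1 had log2 differences of 1.05 and 1.02 (limma with the block, adjusted p = 0.0249 for each). Over the settings joined with the block, the limma adjusted p ranged from 1.16e-08 to 0.182 for ERDJ3B, from 7.89e-04 to 0.62 for AT5G07340, from 0.00409 to 0.654 for CRT1B and from 0.00498 to 0.537 for DER2.1. Without the block it was 0.9999 for each. Leaving out 1 array moved the log2 difference of each by over 1.5 times: to 1.09 for ERDJ3B, 0.68 for AT5G07340 and 0.36 for CRT1B without DTT 1, to 0.53 for DER2.1 without control 1, to 0.81 for AT5G07340 without control 2 and to 1.74 for CRT1B without DTT 2. The 3 listed genes that did not pass the test were DER1, DER2.2 and ERDJ2A, a J-domain protein of the ER. ERDJ2A had signals of 192.9 and 84.4 after DTT, against 198.8 and 165.5 in control (log2 difference -0.51, limma with the block, adjusted p = 0.633). DER1 and DER2.2 had log2 differences of 0.85 and 0.12. In replicates 1 and 2 these were 1.63 and 0.07 for DER1 and 0.38 and -0.15 for DER2.2. DER1 had 222.5 and 94 after DTT, against 71.7 and 89.4 in control, also without overlap. It had 2 probe sets, of which that of higher mean was used.

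**Figure D3:**
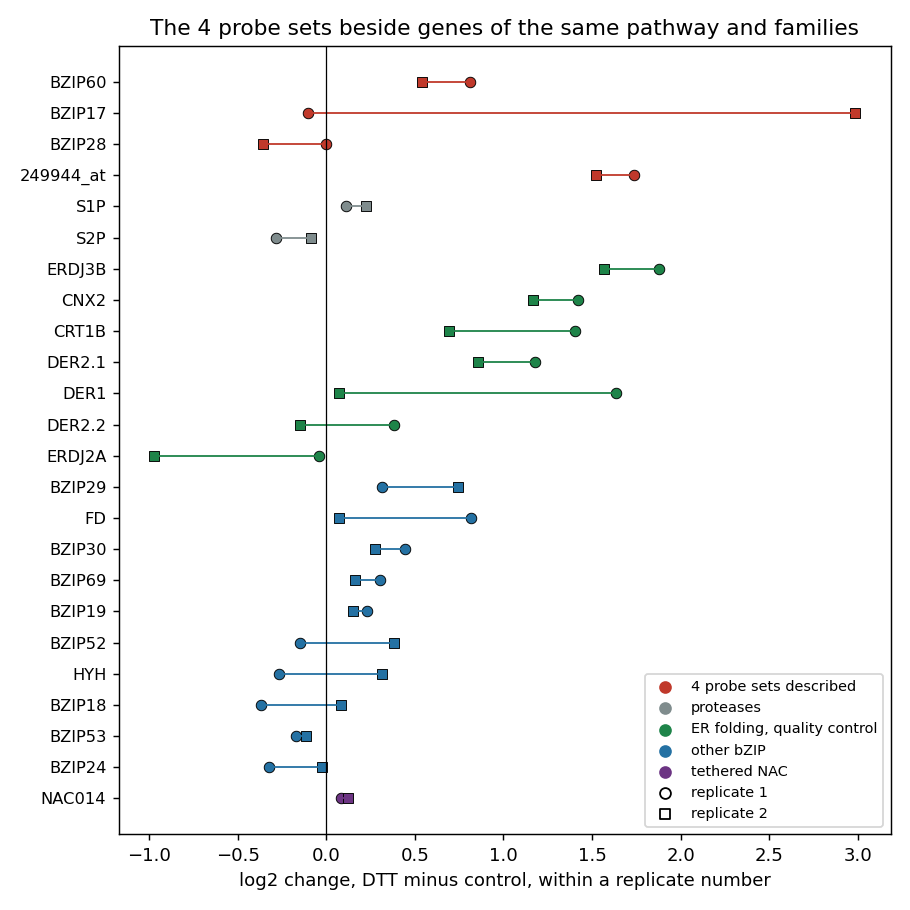
Log2 difference of DTT from control within replicate 1 (circles) and replicate 2 (squares) for the 4 members and for every listed gene with a tested probe set, coloured by list. ERDJ3B, the gene labelled CNX2 (AT5G07340), CRT1B and DER2.1 lie at or above 0.69 in both replicates, and S1P, S2P and NAC014 lie between -0.29 and 0.22.

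The other basic leucine zipper genes give a family background for the 3 BZIP members. Of 58 listed, 18 could be read from their own probe set, and 10 of the 18 lay above the filter. With the block 0 of the 10 were called, where 0.286% of all probe sets tested were called higher and 0.637% lower, so the count is near the background. Their mean log2 differences ranged from -0.17 to 0.53 with a median of 0.15. BZIP29 had signals of 90 and 159.5 after DTT, against 72.5 and 95.4 in control (limma with the block, adjusted p = 0.56). BZIP30, FD, a flowering-time factor, and BZIP69 had log2 differences of 0.36, 0.45 and 0.23. FD had low signals, 29.1 and 14.2 after DTT, against 16.5 and 13.5 in control, where the filter level corresponds to 16.9. Its log2 differences were 0.82 in replicate 1 and 0.07 in replicate 2. Both DTT arrays lay above both control arrays for 1 of the 10 genes and below for 1, near the 8.01% and 9.81% of all probe sets tested. NAC014 was the only one of 12 listed membrane-tethered NAC factors to which the annotation gives a probe set of its own. Its signals were 58.8 and 33.9 after DTT, against 55.6 and 31.2 in control, a log2 difference of 0.10.

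For each member the named probe sets with the most similar pattern were found by the Euclidean distance between log2 signals centred on their mean over the 4 arrays. Over so few arrays this measure describes the pattern only. For 249944_at the nearest was ERDJ3B, at a distance of 0.14 beside a median of 1.98 over all named probe sets compared. AT5G07340, CRT1B and AT3G53670 followed at 0.34, 0.63 and 0.64. AT3G53670 had signals of 669.4 and 376.9 after DTT, against 300.5 and 194.2 in control. The first 3 of these 4 belong to the list of ER folding and quality control, of which 7 genes were tested, and 7373 named probe sets were compared. These 3 were already given above as genes of that list that rose. The ranking used the same 4 arrays, so the count is no separate result.

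For BZIP60 the nearest were AT5G06280, AT4G14420, ATERDJ2B and AT3G54150, at distances of 0.06 to 0.13 beside a median of 1.06. ATERDJ2B, a J-domain protein of the ER, had signals of 148.2 and 89.3 after DTT, against 78.8 and 61.6 in control, or 1.88-fold and 1.45-fold higher within the replicates, and was not called (limma with the block, adjusted p = 0.241). Its paralogue ERDJ2A, described above, had log2 differences of -0.04 and -0.97 in replicates 1 and 2. The nearest of BZIP28 were AT3G13780, AT5G04790, LPA1, a factor of photosystem II assembly, and ATSTE24, a membrane protease that processes prenylated proteins. They lay at distances of 0.04 to 0.06 beside a median of 0.79. ATSTE24 had signals of 233.3 and 285.8 after DTT, against 234.3 and 362 in control.

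For BZIP17 the distances were larger than for the other members, and so was their median. Its nearest, AT2G14130, lay at a distance of 0.98, beside a median of 3.23, and its signals were 90.3 and 18.9 after DTT, against 80.4 and 4.7 in control. That gene, like BZIP17, was lowest on control 2. AT2G07739, AT2G07741 and ARL, a relative of the organ-size gene ARGOS, followed at distances of up to 1.64. The probe sets of the first 3 have the suffixes _x_at or _s_at, which mark probes that can bind more than one transcript.

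**Figure D4:**
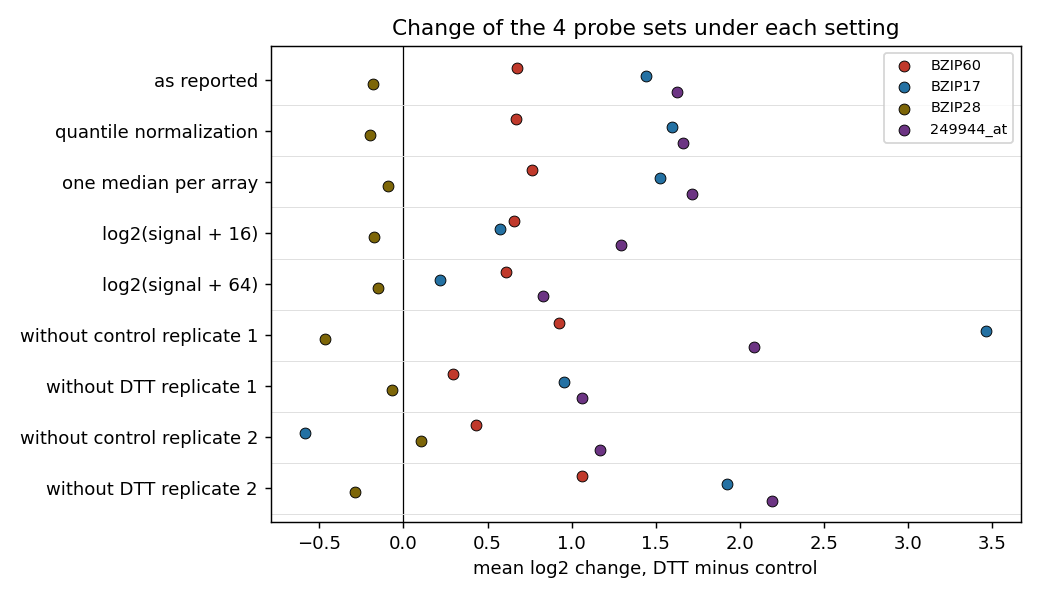
Mean log2 difference of DTT from control for the 4 members (x axis) as reported and under each other scaling, pseudocount or left-out array (rows). BZIP60 and 249944_at stay above 0 in every row, at 0.29 or more and 0.83 or more, while BZIP17 ranges from -0.59 to 3.47 and BZIP28 from -0.47 to 0.11.

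Other scalings kept the direction of each member. BZIP60 had a mean log2 difference of 0.67 with quantile normalization and 0.77 with one median per array, and 249944_at had 1.66 and 1.72. Adding 16 or 64 to each signal before the log2 step lowers the weight of low signals. With these pseudocounts BZIP60 had 0.66 and 0.61, 249944_at had 1.29 and 0.83, and BZIP17 had 0.58 and 0.22. Leaving out 1 array unbalances the replicate numbers and so mixes their difference with that of DTT. BZIP60 then ranged from 0.29 without DTT 1 to 1.06 without DTT 2, and 249944_at from 1.06 without DTT 1 to 2.19 without DTT 2.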

How the data were processed

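The authors deposited 1 linear intensity (signal) per probe set and array, for which the submitters' processing notes name MAS5. The sources used here do not give its version or settings. The trimmed mean (2% at each end) was 100 on every array, so the arrays had been scaled to one level, which sets the mean change near 0. Groups and replicate numbers came from sample titles. Signals of 0 were set to 0.1 and log2 was taken. Of 22746 probe sets other than controls, 13648 had a mean log2 signal at or above the 40th percentile (4.08) and were tested. DTT was tested against control in limma 3.58.1 (R 4.3.3) by lmFit and eBayes, fitting a mean-variance trend, with Benjamini-Hochberg adjustment over all of them and a threshold of 0.05. P-values rest on the spread between these arrays, with each probe set's variance drawn towards that of other probe sets of like signal. With the block, the difference between replicate numbers is taken out of that spread. For ERDJ3B the SE was 0.21 with the block and 0.56 without it.

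Members, gene lists and tests were chosen with earlier results of these data known. Genes came from the supplied annotation, in which 13513 probe sets had 1 gene, 503 several and 8730 none listed, and 13436 matched a RefSeq locus. A gene to which it gives no probe set of its own may still be on the array. A gene with several probe sets was represented by that of highest mean. Named were all 4 members, up to 4 list genes past the test with the block or else the 4 of smallest p, and the 4 nearest named probe sets of each member. The naming rule was applied to the block fit because the fit without it called none. Whether arrays of one number shared a batch is not stated in the labels. The difference between replicates in control correlated at 0.746 with that in DTT over the probe sets tested. A planned search for promoter motifs was not run, since no promoter sequence was used here. Figures were drawn with matplotlib 3.10.9 under Python 3.11.15.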

Additional observations from a re-analysis of the deposited data

How the results depend on the processing

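Without a block, 0 probe sets were called under every setting with all arrays, and 0 to 3 without single arrays (3 without DTT 1). The labels do not say that the numbers pair the samples. With the replicate block 126 were called. Joined with other choices the block gave 51 with quantile normalization, 3 with one median per array, 58 with log2(signal + 16), 135 with log2(signal + 64), 3 with no filter, 176 with the 60th percentile filter, 35 without the variance trend and 105 with robust eBayes. The cause was not tested. The block leaves every mean difference as it is.

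With log2(signal + 16) and log2(signal + 64) the log2 difference of 249944_at was 1.29 and 0.83. Without single arrays the ranges were 0.29 to 1.06 for BZIP60, -0.59 to 3.47 for BZIP17, -0.47 to 0.11 for BZIP28 and 1.06 to 2.19 for 249944_at. BZIP17 and BZIP28 changed sign without control 2. The list median ranged from 0.36 (without DTT 1) to 1.47 for ER folding and quality control and from -0.10 to 0.36 for the bZIP family, whose median was 0.24 with one median per array and 0.063 with log2(signal + 64). The ER folding genes called with the block ranged from 1.09 to 2.36 (ERDJ3B), 0.68 to 1.90 (AT5G07340), 0.36 to 1.74 (CRT1B) and 0.53 to 1.503 (DER2.1). BZIP29 ranged from 0.11 to 0.94. Single genes whose sign turned without an array ranged from -0.23 to 0.57 (S1P), -0.072 to 0.96 (FD), -0.19 to 0.66 (BZIP69), -0.32 to 0.52 (NAC014), -0.96 to 3.14 (AT2G14130), -0.94 to 1.74 (AT2G07739), -1.07 to 1.84 (AT2G07741), -0.85 to 1.73 (ARL), -0.50 to 0.10 (AT3G13780), -0.41 to 0.088 (AT5G04790), -0.44 to 0.092 (LPA1) and -0.49 to 0.14 (ATSTE24). No array can be left out with the block kept and a test made.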

Other observations

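Another 8 genes of the bZIP family had a probe set of their own but a mean signal under the filter, with signals between 0.6 and 28.8. They are given here as values without a test. For 3 of the 8 the replicates differed from control in opposite directions, and single log2 differences ranged from -3.32 to 2.11. BZIP44 had 28.8 and 10.2 after DTT, against 9.6 and 15.8 in control. BZIP42 had 6.4 and 5.6 after DTT, against 5.5 and 1.3 in control, so that its lowest signal, like that of BZIP17, was on control 2.

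Of the 18 probe sets at least 2-fold higher within both replicate numbers, 7 belong to 1 named gene each: AT4G34630, AT4G29520, ERDJ3B, AT5G65610, AT5G07340, AT2G44660 and AT5G15240. AT5G65610 had signals of 20.4 and 64.1 after DTT, against 7.3 and 23.4 in control, and was higher in replicate 2 than in replicate 1 in both groups, unlike BZIP60 and 249944_at. This group was formed after its values were seen.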
